A study of Mus musculus with 4 samples.

Results

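To ask how the stem cells of the cortex appeared in the transcriptome after STING deletion, 9 genes in wide use as markers of radial glia were examined in RNA-seq of the embryonic mouse brain. They are Pax6, Nes, Vim, Fabp7, Slc1a3, Hopx, Prom1, Ptprz1 and Tnc. They were taken by gene name from a table of read counts that lists 27293 named genes. They were chosen as known markers and not for their values in these libraries, though with earlier results of these data known. Each of the 9 was found in the table and passed the filter on low counts, which left 16145 genes.

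Radial glia are the neural stem cells of the embryonic cortex. Their cell bodies line the ventricle, held together by apical junctions, and a long process reaches to the surface of the brain. They divide to renew themselves and to give intermediate progenitors and neurons, and the young neurons climb along the radial process. The markers cover different parts of this biology, namely transcriptional control (Pax6, Hopx), the cytoskeleton (Nes, Vim), handling of lipids and glutamate (Fabp7, Slc1a3) and the cell surface and extracellular matrix (Prom1, Ptprz1, Tnc).

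The libraries were made from telencephalic tissue of C57BL/6 embryos at embryonic day 13 (E13), named cerebral cortex in the methods of the study. The labels give the genotype WT to 2 libraries and STINGf/f;Nestin-Cre (STINGcKO, here cKO) to the other 2, and no treatment to either group. In cKO mice a Cre recombinase transgene driven by the Nestin promoter is meant to delete the floxed STING gene in neural progenitors and, by descent, in their neurons and glia. Most cells of vessels, meninges and blood are held to lie outside this lineage. Where Cre acted in these embryos was not tested. Whether the WT embryos carried a floxed allele or the transgene is not stated, and the title of WT 2 ends in "nes" where that of WT 1 ends in "wt". The labels do not say whether the libraries came from separate embryos or litters, so p-values measure the spread between these samples, which may be technical.

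Between 17209654 and 18533391 reads were counted on genes per library. The STING gene, listed as Tmem173, was covered by 20 and 19 reads in WT 1 and WT 2, and by 18 and 22 in cKO 1 and cKO 2 (log2 fold change 0.02, 95% interval -1.02 to 1.06). The counts thus did not show a loss of STING RNA. They add reads from inside and outside the floxed part and from all cells, and how far the gene was deleted in these libraries was not tested. The genotype was taken from the labels, and "cKO" and "WT" stand for the labelled libraries throughout. WT 1 stood apart in genes of tissues around the cortex. The 14 genes of meninges and mesenchyme in the table summed to 357 CPM (counts scaled to equal library size) in WT 1 and 60.6 to 107 in the other libraries, and the 8 genes of choroid plexus to 61.5 CPM against 7.21 to 10.4. Summed over Ddx3y, Kdm5d, Uty and Eif2s3y, all 4 on the Y chromosome, reads numbered 0 in WT 2 and 1848 to 3002 in the other 3 libraries. WT 2 thus showed no male material on these genes, while the other libraries did. Sex was therefore not matched between WT and cKO, and its part in the differences was not tested.

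None of the 9 radial glia markers differed between cKO and WT beyond the spread between libraries. At a fold change of at least 2 with an unadjusted p of at most 0.05, 0 of 9 were called, where 0.811% of all 16145 genes tested were (131 genes). At an unadjusted p of at most 0.05 alone the count was 0 of 9, against 1.23% of all genes, and the smallest p of a marker was 0.3002. After Benjamini-Hochberg adjustment none of the 16145 genes passed 0.05 in this edgeR fit, since the adjusted p was 0.9999 for the top gene and for each marker alike. DESeq2 called 0 of 9 markers too. The differences were small. Fold changes of cKO over WT ran from 0.911 for Ptprz1 to 1.13 for Nes, with 6 markers above 1 and 3 below, and their median log2 value was 0.07 against -0.01 over all genes tested. The 95% intervals of all 9 lay within a 2-fold difference in either direction, the widest being that of Hopx, from 0.596-fold to 1.81-fold. In bulk tissue, fewer cells of a type and less RNA per cell cannot be told apart.

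**Figure D1:**
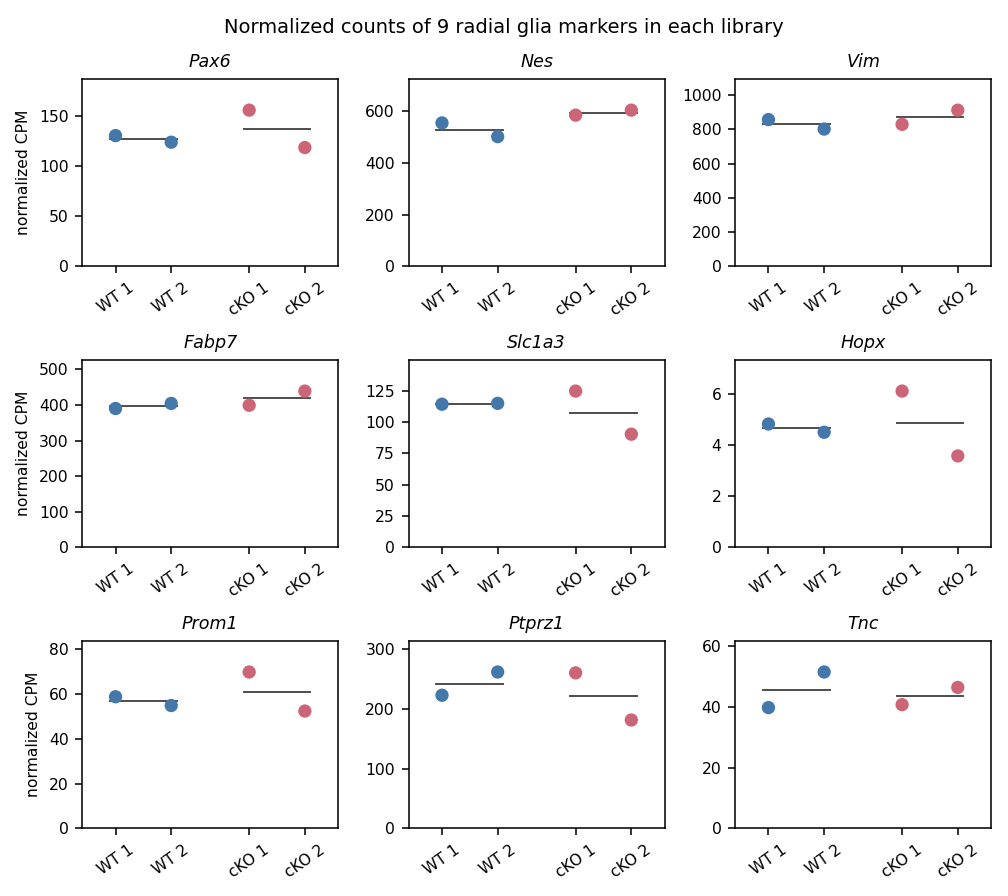
Normalized counts (CPM, linear axis from 0) of each radial glia marker in the 4 libraries, WT in blue and cKO in red, with a line at the mean of each group (n = 2). For Pax6, Slc1a3, Hopx and Prom1 both WT libraries lie between cKO 1 above and cKO 2 below, and Nes is the marker whose cKO libraries both lie above both WT libraries.

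Pax6 (ENSMUSG00000027168, chromosome 2, 105668900 to 105697364, plus strand) encodes the paired-box transcription factor that marks cortical radial glia and promotes neurogenesis. Its normalized count was 131 and 124 CPM in WT 1 and WT 2, and 156 and 119 CPM in cKO 1 and cKO 2. The cKO libraries thus held both the highest and the lowest value, and cKO 2 was 23.9% below cKO 1. The group means were 127 ± 4.65 CPM in WT and 137 ± 26.4 in cKO (SD, n = 2 each), a log2 fold change of 0.11 (standard error 0.17, 95% interval -0.29 to 0.51, unadjusted p = 0.542 from edgeR). The sign turned on 1 library, since the log2 fold change was -0.10 without cKO 1 and 0.31 without cKO 2. At E13, Pax6 is strong in the dorsal telencephalon and weak in most of the ventral part. The sum of the ventral list ran opposite to Pax6 between the cKO libraries, though not every gene of the list did. Gad1 (57.5 and 54.9 CPM in cKO 1 and cKO 2) and Gad2 (97.6 and 99.2) were nearly equal, and the other ventral genes were higher in cKO 2. The 10 ventral genes summed to 737 CPM in cKO 1, against 1146 in cKO 2 and 1092 to 1155 in WT, and Nkx2-1, the defining gene of the medial ganglionic eminence, had 262 counts in cKO 1 and 1035 to 1407 elsewhere. The part of such regional content in the Pax6 values was not tested.

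Hopx (ENSMUSG00000059325, chromosome 5, 77086988 to 77115121, minus strand) encodes a small homeodomain protein that does not bind DNA itself and is best known as a marker of outer radial glia in larger brains. It was the least abundant marker, with 84 and 83 reads in WT 1 and WT 2, and 112 and 64 in cKO 1 and cKO 2, or 4.83, 4.51, 6.12 and 3.58 CPM. Both WT libraries again lay between the cKO libraries, and cKO 2 was 41.5% below cKO 1. The means were 4.67 ± 0.229 CPM in WT and 4.85 ± 1.80 in cKO (SD, n = 2 each), with a log2 fold change of 0.06 (standard error 0.35, 95% interval -0.75 to 0.86). It was -0.38 without cKO 1 and 0.40 without cKO 2.

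Nes and Vim encode the intermediate filament proteins nestin and vimentin, which together fill the radial process. Nes enters both as a marker and as the gene whose promoter drives Cre. Nes (ENSMUSG00000004891) is found on chromosome 3, 87971078 to 87980451, plus strand. It had 554 and 501 CPM in WT 1 and WT 2, and 584 and 603 CPM in cKO 1 and cKO 2. This was the largest difference among the markers and the one marker whose groups did not overlap. All genes tested included 11.0% with both cKO libraries above both WT libraries, so 1 of 9 is near the background. The means were 527 ± 37.4 CPM in WT and 593 ± 13.7 in cKO (SD, n = 2 each), a log2 fold change of 0.17 (standard error 0.15, 95% interval -0.18 to 0.53, unadjusted p = 0.3002 from edgeR). With any 1 library left out it ran from 0.11 to 0.24. The Cre transcript comes from the transgene, so the Nes count gives no measure of Cre.

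The sequences just upstream of the RefSeq start sites of Nes and Pax6 (GRCm38.p6, plus strand) are shown, Nes as the mouse gene after whose promoter the Cre driver is named and Pax6 for comparison as the marker of dorsal radial glia. The transgene carries its own promoter, which was not read here, and neural expression of nestin is known to depend on an enhancer inside the gene. The Nes window is chr3:87970843-87971092 and the Pax6 window chr2:105668646-105668895, each of 250 bases. Capitals mark GC boxes (GGGCGG) and CCAAT boxes (CCAAT) read on either strand.
Nes: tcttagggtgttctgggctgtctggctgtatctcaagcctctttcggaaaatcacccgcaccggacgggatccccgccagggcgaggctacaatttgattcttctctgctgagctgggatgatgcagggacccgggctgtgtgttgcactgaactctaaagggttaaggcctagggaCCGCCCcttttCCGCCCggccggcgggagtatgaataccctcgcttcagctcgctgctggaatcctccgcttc
Pax6: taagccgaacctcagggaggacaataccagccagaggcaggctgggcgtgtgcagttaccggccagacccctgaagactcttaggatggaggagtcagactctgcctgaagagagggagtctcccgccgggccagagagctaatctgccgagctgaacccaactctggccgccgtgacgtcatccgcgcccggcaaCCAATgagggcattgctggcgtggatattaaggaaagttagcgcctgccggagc
Nes held 2 GC boxes on the minus strand, with their leftmost bases at positions -73 and -62 counted from the start site, and no CCAAT box. Pax6 held 1 CCAAT box at -54 and no GC box. Neither window held the letters TATAAA of a TATA box. The letters TGGGAA, the core of the Rbpj motif of Notch signaling, were also absent from both, each searched on either strand and with no overlap between the motifs found. A GC box was found in 5 of the 9 marker windows and in 32.7% of 32851 RefSeq windows of this length, and TATAAA in 3 of 9 and in 12.4%. The Rbpj letters were in 3 of 9 and in 21.6%, and a CCAAT box in 6 of 9 and in 33.9%. These matches describe letters in a window and do not show that a factor binds there.

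Vim (ENSMUSG00000026728, chromosome 2, 13573927 to 13582826, plus strand) had the most reads of the 9 markers, with 857 and 802 CPM in WT 1 and WT 2, and 829 and 912 CPM in cKO 1 and cKO 2. The groups overlapped, with cKO 1 between the WT libraries. The means were 829 ± 39.0 CPM in WT and 871 ± 58.6 in cKO (SD, n = 2 each), a log2 fold change of 0.07 (standard error 0.16, 95% interval -0.30 to 0.44). Among the 6 other neural intermediate filament genes tested, 0 were called and 4 were higher and 2 lower in cKO. Ina (α-internexin), with the most reads, had a log2 fold change of -0.08, Prph (peripherin) 0.52 and Nefh (heavy neurofilament) 0.32, the last 2 on at most 61 counts per library. Gfap, which marks the later astrocytic state of these cells, was too low to test, at 4 reads in either WT library and 2 and 1 in cKO.

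Fabp7 (brain lipid-binding protein, a fatty acid carrier) and Slc1a3 (GLAST, a glutamate transporter of the cell membrane) are the classical metabolic markers of radial glia, and both persist in astrocytes. Fabp7 (ENSMUSG00000019874, chromosome 10, 57784881 to 57788450, plus strand) had 390 and 404 CPM in WT 1 and WT 2, and 399 and 439 CPM in cKO 1 and cKO 2. The values were close, and cKO 1 lay between the WT libraries. Its means were 397 ± 10.1 CPM in WT and 419 ± 28.3 in cKO (SD, n = 2 each), a log2 fold change of 0.08 (standard error 0.15, 95% interval -0.27 to 0.43). Slc1a3 (ENSMUSG00000005360, chromosome 15, 8634124 to 8710764, minus strand) had 114 and 115 CPM in WT 1 and WT 2, and 125 and 90.4 in cKO 1 and cKO 2. The WT libraries were nearly equal while cKO 2 was 27.6% below cKO 1. The means were 115 ± 0.488 CPM in WT and 108 ± 24.4 in cKO (SD, n = 2 each), a log2 fold change of -0.09 (standard error 0.18, 95% interval -0.51 to 0.33). Slc1a3 was at -0.34 without cKO 1 and at 0.14 without cKO 2.

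Relatives of these carriers were read from lists of lipid-binding proteins and of glutamate transporters and enzymes. Of 6 lipid-binding genes, 0 were called, 3 were higher and 3 lower. Fabp5, with the most reads, had a log2 fold change of 0.18, and Apoe -0.53 (unadjusted p = 0.0973 from edgeR), with 949 counts in WT 1 and 466 to 609 in the other libraries. Of 7 glutamate genes, 0 were called, 3 were higher and 4 lower. Slc1a2 (GLT-1, the second glial glutamate transporter) had 86.9 and 91.5 CPM in WT and 74.6 and 70.5 in cKO, groups that did not overlap, with a log2 fold change of -0.30 (standard error 0.14, unadjusted p = 0.0728 from edgeR). All genes tested included 10.8% with both cKO libraries below both WT libraries. Glul (glutamine synthetase), with the most reads, was at 0.02.

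Prom1 (prominin-1 or CD133, a membrane protein of apical protrusions; ENSMUSG00000029086, chromosome 5, 43993620 to 44102032, minus strand) had 58.8 and 54.9 CPM in WT 1 and WT 2, and 69.9 and 52.4 CPM in cKO 1 and cKO 2. As for Pax6, the cKO libraries were the highest and the lowest. The means were 56.9 ± 2.78 CPM in WT and 61.2 ± 12.3 in cKO (SD, n = 2 each), a log2 fold change of 0.11 (standard error 0.18, 95% interval -0.32 to 0.53). It was -0.11 without cKO 1 and 0.31 without cKO 2. Prom1 sits at the apical surface, and of 12 tested genes of apical junctions and polarity 0 were called, with 7 higher and 5 lower and a median log2 fold change of 0.04. Ctnnb1 (β-catenin), with the most reads, was at 0.07, Crb1 (a Crumbs polarity protein) at -0.37 and Pard6b at -0.22.

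Ptprz1 (ENSMUSG00000068748, chromosome 6, 22875502 to 23052916, plus strand) encodes a receptor tyrosine phosphatase with a large, sugar-bearing outer part that binds pleiotrophin, contactin and tenascins. It had 223 and 261 CPM in WT 1 and WT 2, and 260 and 181 CPM in cKO 1 and cKO 2. WT 2 and cKO 1 were almost equal, and cKO 2 was the lowest, 30.3% below cKO 1. The means were 242 ± 27.5 CPM in WT and 221 ± 55.7 in cKO (SD, n = 2 each), a log2 fold change of -0.13 (standard error 0.20, 95% interval -0.60 to 0.33, unadjusted p = 0.525 from edgeR). It was -0.42 without cKO 1, 0.12 without cKO 2 and 0.000253 without WT 2.

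Tnc (tenascin-C, an extracellular matrix glycoprotein of the germinal zone; ENSMUSG00000028364, chromosome 4, 63959785 to 64047015, minus strand) had 39.8 and 51.5 CPM in WT 1 and WT 2, and 40.8 and 46.4 CPM in cKO 1 and cKO 2. Here the WT libraries were the lowest and the highest. The means were 45.7 ± 8.30 CPM in WT and 43.6 ± 4.01 in cKO (SD, n = 2 each), a log2 fold change of -0.07 (standard error 0.19, 95% interval -0.50 to 0.37). Tnc was at -0.24 without WT 1, at 0.14 without WT 2 and at 0.03 without cKO 1.

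Ligands, receptors and matrix partners of Ptprz1 and Tnc were read from a list of 14 genes, of which 4 were higher and 10 lower (median log2 fold change -0.09). Itgb3 (integrin β3, a receptor subunit for matrix proteins) was the gene of this list past the thresholds. Its reads numbered 49 and 41 in WT but 21 and 16 in cKO, for a log2 fold change of -1.30 (standard error 0.42, unadjusted p = 0.0142 from edgeR, adjusted p = 0.9999). In all genes tested 0.669% were called lower in cKO. The call was lost without WT 1 and without cKO 2, each at a log2 fold change of -1.12, and with DESeq2, at -1.29. Integrin β3 is also a protein of vessels and blood platelets, and the 10 genes of endothelium and pericytes summed to 217 to 296 CPM in WT and 193 to 202 in cKO. The part of these cells in the Itgb3 value was not tested. Cntn1 (contactin-1) was at -0.56 without passing (unadjusted p = 0.114 from edgeR), and Ncan (neurocan), with the most reads, at 0.24.

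**Figure D2:**
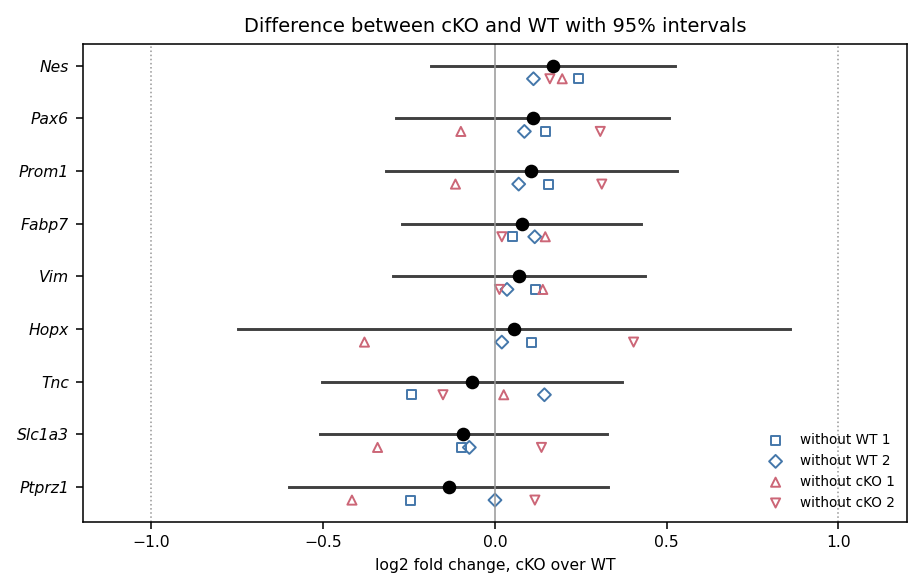
Log2 fold change of cKO over WT for each radial glia marker (black points, with 95% intervals as bars) and the same value with 1 library left out (open symbols), dotted lines marking a 2-fold difference. All intervals cross 0 and stay inside 2-fold, and for Pax6, Prom1, Hopx, Slc1a3 and Ptprz1 leaving out cKO 1 or cKO 2 moves the value to opposite sides of 0.

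To compare the markers with each other, counts were divided by exon length and given in RPKM (CPM per kilobase of exon), as the mean ± SD over the 4 libraries. Fabp7 was the highest at 327 ± 17.2 RPKM, above 99.5% of the genes tested. Vim followed at 179 ± 9.94 and Nes at 87.3 ± 6.94 RPKM, above 98.9% and 97.2% of genes. A wide gap separated these 3 from Ptprz1 (16.2 ± 2.66 RPKM), Slc1a3 (13.02 ± 1.72) and Pax6 (11.3 ± 1.41). The ranges over libraries overlapped between Ptprz1 and Slc1a3 and between Slc1a3 and Pax6, so the order of these neighbours is not settled, and it changed when the longest transcript was used as the length. Prom1 was at 8.23 ± 1.08 RPKM, Tnc at 5.74 ± 0.702 and Hopx at 3.14 ± 0.693, above 39.7% of genes. The ranges of the other neighbouring pairs did not overlap. The tissue thus held the transcripts of every radial glia marker examined, with the genes of filaments and lipid carriage far above those of transcription factors, membrane and matrix proteins.

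The markers did not vary together across the libraries. cKO 2 was the lowest library for 5 of the 9 (Pax6, Slc1a3, Hopx, Prom1 and Ptprz1), against 33.4% of all genes, and cKO 1 was the highest for 4, against 23.7%. For Nes, Vim and Fabp7 cKO 2 was instead the highest library, against 33.6% of all genes, so 3 of 9 is near the background. Over the 4 libraries Pearson's r was 1.00 between Pax6 and Prom1, 0.95 between Pax6 and Hopx, and -0.97 between Vim and Ptprz1. These values describe 4 points that share depth and tissue content. For 8 of the 9 markers the split went with the span of the gene. Nes, Vim and Fabp7 span 9374, 8900 and 3570 bases, and the markers lowest in cKO 2 span from 28134 (Hopx) to 177415 bases (Ptprz1), while Tnc, with 87231 bases, did not go with them. The same trend ran through the table. Among genes with a mean of at least 10 CPM, the median log2 ratio of cKO 2 over cKO 1 was 0.25 in the bin with the shortest span of 4 equal bins, 0.09 and -0.06 in the next bins and -0.18 in the bin with the longest. For WT 2 over WT 1 these medians were 0.00, 0.00, 0.02 and 0.08. With an offset for span in the fit, chosen after the data were seen, the markers kept their signs, and the log2 fold change was 0.14 for Nes, 0.11 for Pax6 and -0.08 for Ptprz1. By the length of exons in place of span the medians for the cKO pair ran from 0.26 in the shortest bin to -0.21 in the longest, but Hopx, with 1516 bases of exons, was lowest in cKO 2 like the long genes. What differs between the cKO libraries by length was not tested.

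**Figure D3:**
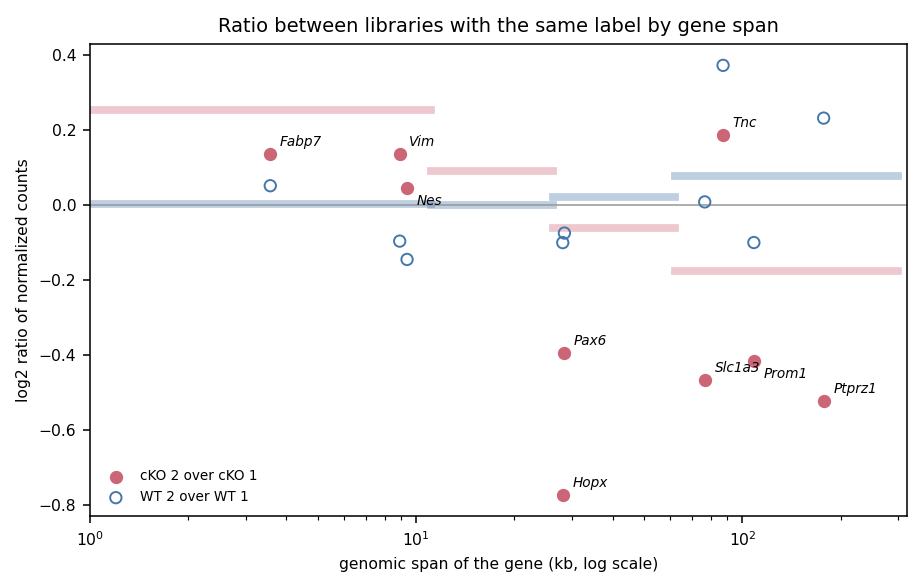
Log2 ratio of normalized counts between libraries of the same label against the genomic span of each radial glia marker (kilobases, log axis), cKO 2 over cKO 1 as filled red points and WT 2 over WT 1 as open blue points. Pale bars give the median of each of 4 equal bins by span of genes with a mean of at least 10 CPM, from 0.25 to -0.18 for the cKO pair and from 0.00 to 0.08 for the WT pair.

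Other genes of radial glia also stayed below the thresholds. Of 23 further genes of these cells, 0 were called, 15 were higher and 8 lower in cKO, and the median log2 fold change was 0.10. In 9 of the 23 both cKO libraries lay above both WT libraries (Sox3, Sox9, Nr2e1, Lhx2, Notch1, Phgdh, Aldoc, Dbi and Fgfr3), where all genes tested had 11.0%. Aldoc (aldolase C, a glycolytic enzyme) had 173 and 170 CPM in WT and 208 and 213 in cKO, for a log2 fold change of 0.29 (standard error 0.14, unadjusted p = 0.0710 from edgeR). Lhx2, a LIM homeodomain factor that specifies cortex and the gene of the list with the most reads, had 431 and 454 CPM in WT and 524 and 484 in cKO (log2 fold change 0.19, unadjusted p = 0.253 from edgeR). Ednrb (endothelin receptor B) was the one gene with both cKO libraries below, at 52.4 and 51.0 CPM in WT and 43.6 and 35.3 in cKO, and a log2 fold change of -0.39 (unadjusted p = 0.0565 from edgeR). Sox2, the general neural stem cell factor, had 212 and 185 CPM in WT and 188 and 167 in cKO, overlapping values with a log2 fold change of -0.16. The list of outer radial glia genes had 6 tested, of which 0 were called, 1 was higher and 5 lower. Stat3, with the most reads, was at 0.03, Itgb5 at -0.58 (unadjusted p = 0.0978 from edgeR) and Moxd1 at -0.49 on at most 32 counts per library.

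The cells that radial glia give rise to were compared next. The 9 markers summed to 2372 and 2318 CPM in WT 1 and WT 2, and 2470 and 2447 CPM in cKO 1 and cKO 2. Both cKO sums lay above both WT sums, and Vim, Nes and Fabp7 hold most of these reads. The 11 genes of intermediate progenitors summed to 1271 and 1340 CPM in WT and 1362 and 1418 in cKO. The ratio of the first sum to the second was 1.87, 1.73, 1.81 and 1.73 in WT 1, WT 2, cKO 1 and cKO 2, so the groups overlapped. Eomes (Tbr2, the defining factor of intermediate progenitors) had a log2 fold change of 0.20 (standard error 0.15, unadjusted p = 0.223 from edgeR), Neurod1 was at -0.35 and Neurog2, with the most reads, at 0.08. Of the 11 genes 0 were called, 8 were higher and 3 lower. The 12 genes of cortical neurons summed to 6494 and 7667 CPM in WT and 7120 and 6582 in cKO, and the ratio of the marker sum to theirs was 0.365 and 0.302 in WT and 0.347 and 0.372 in cKO, again overlapping. Of them 0 were called, with 6 higher and 6 lower. Dcx (doublecortin) was at -0.30 and Map2 at -0.29, both with their lowest value in cKO 2, where Dcx had 524 CPM against 855 to 1114 elsewhere. Tubb3 (Tuj1), with the most reads, was at 0.05. Of 11 proliferation genes 0 were called, 10 were higher and 1 lower. Tyms (thymidylate synthase) was at 0.19, Mcm2, a subunit of the replicative helicase, at 0.18, and Top2a, with the most reads, at 0.08.

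**Figure D4:**
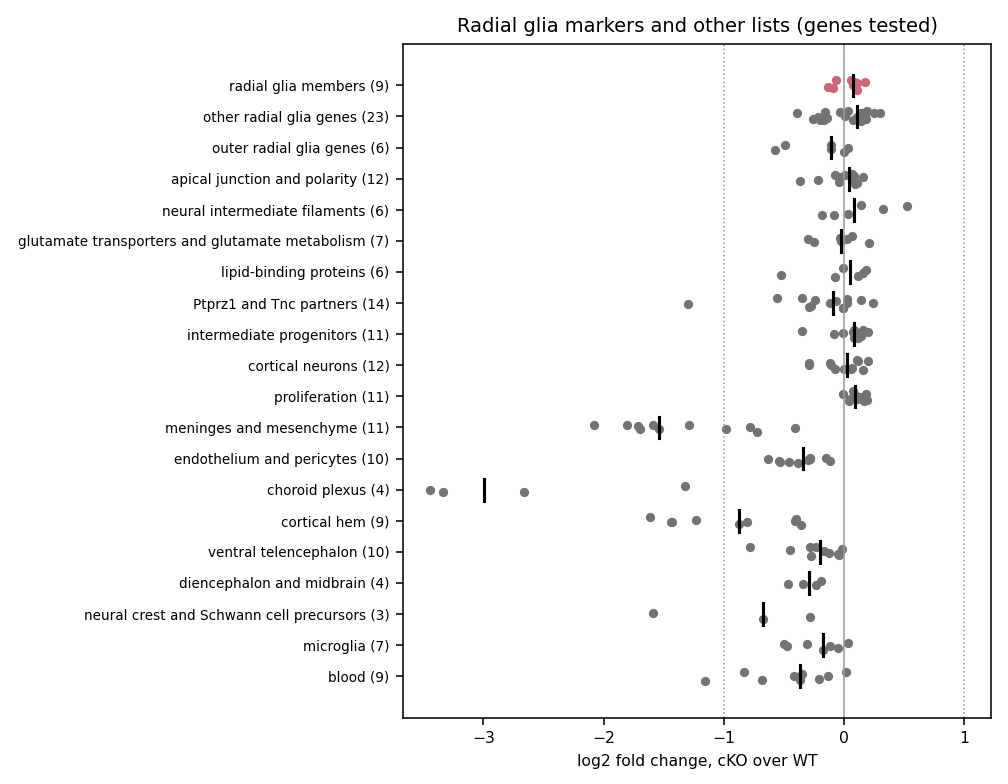
Log2 fold change of cKO over WT for each tested gene of the radial glia markers (red) and of 19 other gene lists (grey), with the number of genes tested after each list's name, a black bar at each list's median and dotted lines at a 2-fold difference. The radial glia markers lie between -0.13 and 0.17, and the lists of choroid plexus and of meninges and mesenchyme have medians of -2.996 and -1.54.

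Within the lists read here, the genes past the thresholds came mostly from those of tissues beside the cortex. Of the 175 tested genes in the 19 other lists, 8 were called, all lower in cKO, where 0.669% of all genes tested were called lower. They were Itgb3, Kcne2, Aqp1, Htr2c and Otx2 of the choroid plexus list, and Col1a1, Col1a2 and Alx4 of the mesenchymal list. The lists were chosen with earlier results of these data known. These 2 lists hold Alx4, Htr2c, Slc4a5, Ogn, Fmod and Sostdc1, which the study names among its most lowered genes. The number called in them is therefore not independent of the study's own result. Choroid plexus lies at the medial edge of the cortex, and meninges cover it. For Alx4, the study reports the protein within the embryonic cortex too, with SOX2 near the ventricle and with TUJ1 in the cortical plate. It also reports less ALX4 protein in cKO at a later stage. By PCR at E13 it reports lower Alx4, Htr2c and Slc4a5 RNA in cKO, while its differences for Ogn, Fmod and Sostdc1 were not significant. Which cells the Alx4 reads came from was not tested. Of 11 tested mesenchymal genes 3 were called and all 11 were lower (median log2 fold change -1.54). Of 8 choroid plexus genes in the table only 4 passed the filter on low counts, and these 4 were called (median -2.996). WT 1 was the highest library for each of the 7 called genes of these lists. Col1a1, for instance, had 1160 reads in WT 1 and between 106 and 221 in each of the other libraries. Without WT 1, Alx4 kept its call at a log2 fold change of -1.22, while Col1a1 was at -0.11, Aqp1 at -0.67, Otx2 at -0.31, Htr2c at -1.66, Col1a2 at 0.21 and Kcne2 at 1.24, none of them called. Without WT 1 the number of genes called over the 19 lists was 4, without WT 2 it was 32 and without cKO 1 it was 14. The part of the tissue content of WT 1 in these calls was not tested. The sum of the radial glia markers was not highest in WT 1. It was 2372 CPM in WT 1, 2318 in WT 2 and 2447 to 2470 in cKO. The part of the tissue content of WT 1 in the marker values was not tested either.

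**Figure D5:**
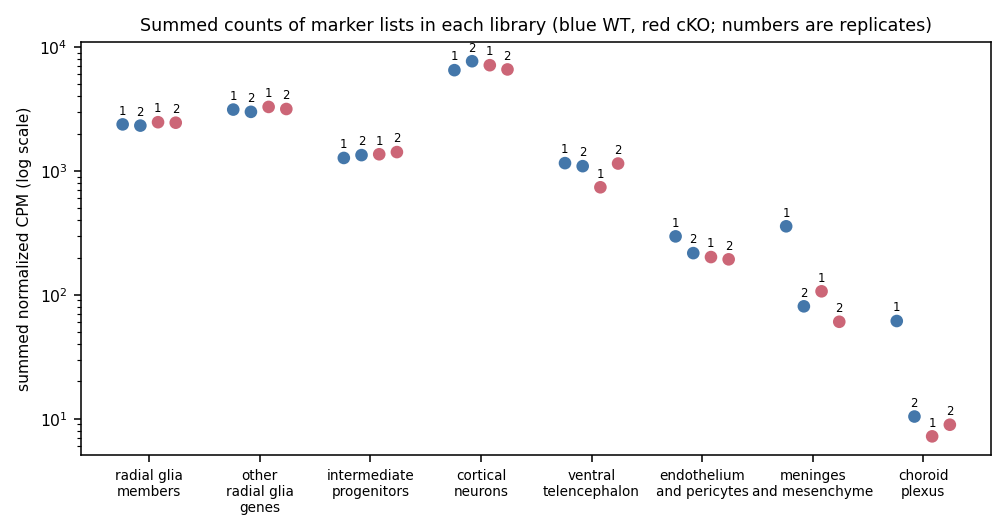
Summed normalized CPM (log axis) of the radial glia markers and of 7 other lists in each library, WT in blue and cKO in red, labelled by replicate number. The radial glia markers lie between 2318 and 2470 in all 4 libraries, the ventral telencephalon list is lowest in cKO 1 at 737, and WT 1 is highest for meninges and mesenchyme at 357 and for choroid plexus at 61.5.

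Some genes outside the markers lay near the pattern of the markers' mean over the 4 libraries. Among 10153 genes with a mean of at least 10 CPM, the nearest to it by Euclidean distance of centred log2 values were Mcur1 (0.00911), Dcaf13 (0.0149) and Rmdn3 (0.0174). In all, 418 of these genes lay within 0.1. The nearest marker itself was Pax6 at 0.154, and 1223 genes were nearer than it. No single marker thus had the mean profile closely, and the count does not show how common the profile is.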

How the data were processed

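Total RNA of E13 telencephalic tissue was extracted with TRIzol and sequenced by the authors on an Illumina HiSeq instrument in 4 libraries, 2 labelled WT and 2 labelled cKO. The authors deposited the count of reads per gene, without normalization. The submitters' processing notes name TopHat2 2.0.12, Bowtie2 2.2.3 and HTSeq 0.6.0 and the build mm9. The gene positions in the table match GRCm38 instead, since of 27232 genes found in GENCODE M21 97.3% start or end within 1 base of it, and coordinates are given as such. Whether counting used strand is not given in the sources used here, so reads of overlapping antisense genes could not be separated. The tables also hold scaled values, mean counts, fold changes and p-values of the authors' own comparison, which were not used. In the second table, of cKO 1 and WT 1, the counts of the 9 markers are identical to the first, and it was not used further. Of 27304 rows, 11 (0.0403%) carry no gene and were left out.

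Counts were tested with edgeR 4.0.16 in R 4.3.3 (filterByExpr, TMM, quasi-likelihood with the default settings, no covariate) on 16145 genes, with Benjamini-Hochberg adjustment over all of them. Standard errors are the log2 fold change divided by the root of the quasi-F statistic. Genes were called at 2-fold or more in either direction with an unadjusted p of at most 0.05, as in the methods of the study. With 2 libraries per group an exact permutation test cannot go below p = 0.333, so none was used. CPM are TMM-normalized counts, and RPKM divide them by the union of exons in GENCODE M21. Promoter windows are the 250 bases before each RefSeq start site, with all 9 markers matched by symbol. They come from GRCm38.p6, and the 7 windows not shown were only searched for motifs. The procedure was tested on simulated counts. The markers, the 19 other lists and the rules were chosen with earlier results of these data known. The genes named are the markers, the STING gene, in each other list the 2 tested genes with the largest absolute log2 fold change, those past the thresholds and the gene with the most counts, and the 3 genes nearest to the mean profile of the markers. A few genes that this rule would name are not reported here. Sox2, Nkx2-1 and genes whose groups did not overlap were named after their values were seen. For Ttr, Clic6 and En1 of the lists, values were not analysed here. Alternatives covered normalization, filter, tool, dispersion fit, the replicate block, each library left out, the fold threshold and the length used. Offsets for exon length and gene span were added after the data were seen.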

Additional observations from a re-analysis of the deposited data

How the results depend on the processing

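The count of radial glia markers called stayed at 0 of 9 under all 13 alternative fits, and in the fit of all 4 libraries also with a fold of 1.2 in place of 2, and 0 had an adjusted p under 0.05 in any of them. Nes, Vim and Fabp7 kept their direction in 13 of 13 alternatives, Pax6, Slc1a3, Hopx and Prom1 in 12, and Ptprz1 and Tnc in 11. The exceptions all came with 1 library left out, where the lone library of a group is assumed to vary like the other group. The median log2 fold change of the markers then ran from -0.10 (without cKO 1) to 0.14 (without cKO 2), and it was 0.02 to 0.08 in the other settings. The ranges over the libraries left out were -0.10 to 0.31 for Pax6, -0.34 to 0.14 for Slc1a3, -0.38 to 0.40 for Hopx, -0.11 to 0.31 for Prom1, -0.42 to 0.12 for Ptprz1 (0.000253 without WT 2) and -0.24 to 0.14 for Tnc (0.03 without cKO 1). Without cKO 2 or without cKO 1, 2 markers had an unadjusted p of at most 0.05 in edgeR, Pax6 (0.0342) and Prom1 (0.0451) higher without cKO 2, Slc1a3 (0.0214) and Ptprz1 (0.0204) lower without cKO 1. All 4 of these values are past a fold of 1.2. The cause was not tested. The number of genes called in the other lists was 8, but 24 with no filter, 4 with at least 10 counts in every library and 15 with the replicate number as a block, and 4 to 32 with 1 library left out. Over all genes the calls were 131, and 405 with no filter, 72 with at least 10 counts, 82 with DESeq2 (run on 27293 genes with no filter on low counts, so tool and filter changed together), 208 with the block, 476 without WT 2 and 531 without cKO 1. Genes with an adjusted p under 0.05 numbered 0, but 65 with no filter, 5 with the block, 7 without WT 1, 116 without WT 2 and 105 without cKO 1, all in edgeR. The replicate numbers were not taken as pairs, since the labels name no shared litter or batch and there are 2 pairs, whose deviations correlated at 0.126 over genes. With the replicate block the median of the markers was 0.07 and 0 were called. The median marker level rose from 13.02 to 28.7 RPKM with the longest transcript as the length, through the shorter length alone, and Pax6 then ranked 4 in place of 6. edgeR's bias-adjusted dispersion fit called 135 genes. At this depth Hopx, with 64 to 112 counts, was the marker measured with the least precision.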

Other observations

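Values of the lists of other cell types in the tissue are given here with no explanation. Of 9 cortical hem genes, which pattern the medial cortex, 0 were called and 9 were lower (median log2 fold change -0.88). Wnt3a, the defining gene of the hem, had 72 counts in WT 1 and 6 to 20 in the other libraries. Bmp6 was at -1.44, with 100 counts in WT 1 and 16 to 28 elsewhere, and Wnt5a, with the most counts, at -0.36. Of 10 ventral telencephalon genes 10 were lower and 0 called (median -0.20). Gad1, which makes the transmitter GABA, had 79.8 and 73.4 CPM in WT and 57.5 and 54.9 in cKO (log2 fold change -0.45, unadjusted p = 0.0179 from edgeR), and Dlx1, with the most reads, was at -0.28. Of 10 genes of endothelium and pericytes 10 were lower and 0 called (median -0.34), among them Flt1 (-0.64) and Kdr (-0.54), receptors of vascular growth factors, and Rgs5 (-0.29), the pericyte gene with the most counts.

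Of 9 blood genes 8 were lower and 1 higher, with 0 called (median -0.37). The embryonic globins Hba-x and Hbb-y were at -0.83 and -0.68. The list summed to 1082 CPM in WT 1 and 473 to 724 in the other libraries. Of 7 microglia genes 6 were lower and 1 higher, with 0 called (median -0.18), Ptprc at -0.50 on at most 14 counts per library and Csf1r at -0.47. Of 4 tested genes of diencephalon and midbrain 4 were lower and 0 called (median -0.29), with Gbx2 at -0.47, Barhl2 at -0.34 and Lhx9, with the most counts, at -0.19. Gbx2 had at most 45 counts per library. Of 3 tested neural crest genes 3 were lower and 0 called (median -0.67), with Erbb3 at -1.59 and Sox10 at -0.67. Erbb3 had at most 33 and Sox10 at most 52 counts per library, both with the most in WT 2.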
